A study of Mus musculus with 2 samples.

Results

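Adipokines are signalling proteins that fat cells release into the blood, and 8 genes of this kind and Car3 were followed in the mouse omentum, a sheet of abdominal fat that carries lymphoid clusters called milky spots. They were chosen by gene symbol from a list of adipocyte-secreted factors, and Car3, an abundant enzyme of fat cells, was added to it. All 9 were found among the 24346 gene symbols that each library listed. Whole omentum of each of 2 mouse genotypes, WT and Postn-DTR, had been profiled by RNA-seq, with 1 library per genotype. Both groups received diphtheria toxin (DT) and were taken 5 days later. Postn-DTR mice are heterozygotes (Postn Dtr/+) of C57BL/6 origin in which a DT receptor was placed in the first coding exon of Postn, so that DT kills cells that use the Postn promoter. These include the Aldh1a2+ fibroblastic reticular cells (FRCs) of milky spots, and Postn-using cells of other organs carry the receptor as well. The WT mice carried no receptor. Age, sex and the number of mice behind each library are not given in the sources used here.

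Adipoq encodes adiponectin, a hormone that raises insulin sensitivity and circulates as multimers. Lep encodes leptin, which reports fat stores to the brain, and Retn encodes resistin, which in mice comes mainly from fat cells. Nampt encodes the rate-limiting enzyme of NAD salvage and is also found outside cells as visfatin. Rarres2 encodes chemerin, a chemoattractant that proteases activate, and Apln encodes apelin, the ligand of a receptor on vessels. Sfrp4 and Sfrp5 encode secreted proteins that bind Wnt ligands, and Car3 encodes carbonic anhydrase 3, which makes up much of the soluble protein of mouse fat cells.

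Values are FPKM, fragments corrected for transcript length and library size, so they can be set side by side between genes. Each gene was compared as log2(FPKM + 1) in Postn-DTR less that in WT, called its change here, and folds quoted beside it are plain ratios of FPKM. The pseudocount of 1 shrinks the change of low genes. The comparison covered the 13127 genes whose mean over both libraries reached 1 FPKM. A change of 2-fold or more on this scale is called lower or higher. A single library per genotype gives no spread between replicates and no test, so no value here has a replicate check. The depth estimated from low values was about 23300000 fragments in WT and 24000000 in Postn-DTR. The targeted gene Postn was at 58.3 FPKM in the WT library and 16.2 in the Postn-DTR library, a change of -1.79. The receptor insertion lies in 1 Postn allele of the Postn-DTR mice, and its part in the lower value was not tested. Aldh1a2, the gene that marks the targeted FRCs, was at 85.5 and 63.3, a change of -0.43, which was not called. The paper cites earlier reports of Aldh1a2 in mesothelial cells and fibroblasts of omentum, so the whole-tissue value does not measure these FRCs alone. It reported their depletion after DT by staining and by flow cytometry, the latter at an earlier time than the 5 days of these libraries. By flow cytometry another FRC population was also partly lost. The libraries also differed in 34 listed pancreatic acinar genes, which summed to 13248 FPKM in WT and 21.9 in Postn-DTR. Removing these genes and giving both libraries the same total shifted the median over all genes by -0.30. This shift is not that of the acinar genes alone, because the FPKM totals were unequal (542190 for WT, 671882 for Postn-DTR). The acinar genes were a small part of the WT total, and the setting does not separate its steps.

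Car3 was the only one of the 9 genes that was called. It fell from 4329 FPKM in WT to 2109 in Postn-DTR, or 2.05-fold. Of the 8 genes compared, 1 was lower (12.5%), against 3.12% of all genes compared, and 0 were higher, against 3.88%. The other 7 stayed within 2-fold. Sfrp5 was under the expression minimum and was not compared. Changes were below 0 in 7 of the 8 genes and above 0 in 1, Nampt, although 6 of these 7, all but Car3, turned above 0 when centred on the adipocyte markers. That centring adds 0.77, and Sfrp4, at -0.85 without the pseudocount, turned only with the pseudocount. The median of the 8 was -0.57, beside 0.02 over all genes compared. The number of genes is small, so 1 call is a description and not a rate.

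In the WT library the levels ran from Car3 through Adipoq, Retn, Rarres2, Apln, Lep, Nampt and Sfrp4 down to Sfrp5. In the Postn-DTR library Retn stood just above Adipoq, and Nampt came before Lep and Apln. With 1 library per genotype, neighbours in these orders could not be told apart beyond a spread, and Adipoq and Retn differed by less than 2% in either library. Together the 9 genes held 1.23% of all FPKM in WT and 0.557% in Postn-DTR, whose FPKM total was larger (671882 against 542190). Their summed FPKM was 6668 and 3744, and without Car3 it was 2339 and 1634.

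**Figure D1:**
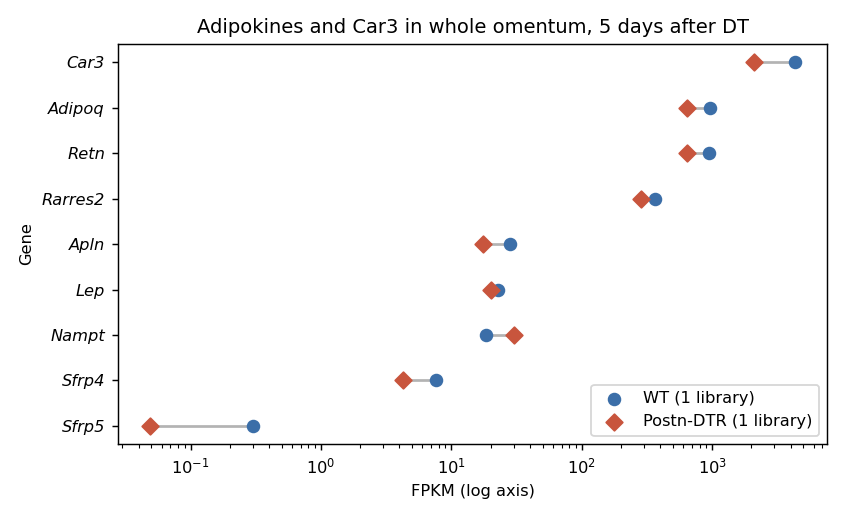
FPKM of each gene (log axis) in the single WT library (circles) and the single Postn-DTR library (diamonds), joined by a line. As deposited, the diamond lies left of the circle for 8 genes and right of it for Nampt, and the widest gap is that of Sfrp5, the gene with the lowest values.

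The rest of the fat cell and the other cells of the tissue are given beside these values, because whole tissue cannot separate fewer cells of a type from less RNA per cell. Of 14 adipocyte markers other than the adipokines, all were compared, 4 were called lower and 0 higher, and their median change was -0.77. Adrb3, the fat cell beta-adrenergic receptor, fell from 76.2 to 15.4 FPKM, and Slc2a4, the insulin-sensitive glucose transporter, from 44.8 to 13.7. The glycerol phosphate dehydrogenase gene Gpd1 fell from 358 to 128, and the glycerol channel gene Aqp7 from 13.2 to 5.68. The lipid droplet protein gene Plin1 was at 321 and 189. Fabp4, a fatty acid carrier, was at 4879 and 6519. The summed FPKM of these markers was 7900 in WT and 8896 in Postn-DTR, and Fabp4 made up most of both sums. Changes were below 0 in 10 of the 14 markers, so the higher sum does not describe most of them. Of 7 macrophage markers 4 (Cd14, Itgam, Adgre1 and Cd68) were called higher and 0 lower, and their summed FPKM was 2869 and 4806. Of 8 fibroblast and preadipocyte markers 4 (Dpt, Clec3b, Col15a1 and Pdgfrb) were lower and 0 higher, with sums of 1088 and 558. Of 6 endothelial markers 0 were called in either direction, with sums of 280.1 and 272. Of 5 mesothelial markers 1 (Lrrn4) was lower and 0 higher, with sums of 468 and 474. The 7 housekeeping genes held 0 calls, with a median change of 0.06. The part of these cell types in the values of the adipokines was not tested.

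**Figure D2:**
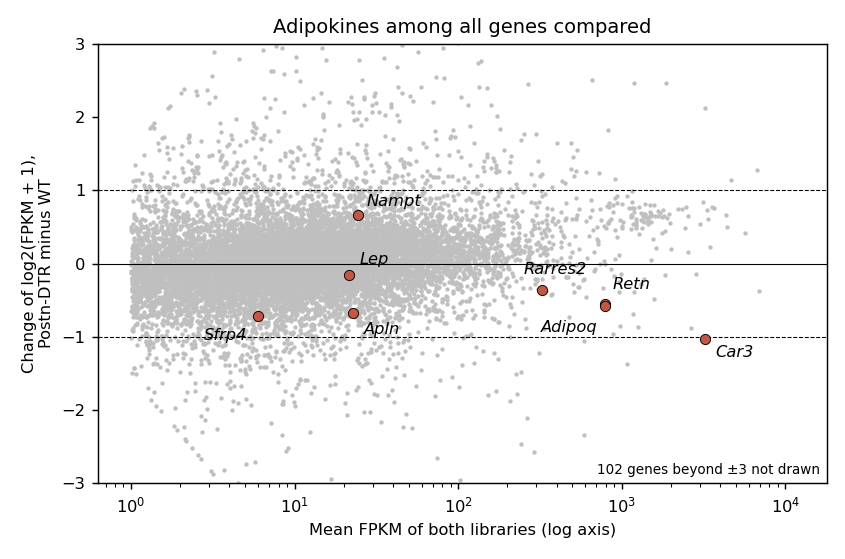
Change on the log2(FPKM + 1) scale, Postn-DTR less WT, against mean FPKM (log axis) for the 13127 genes compared (grey) and for Car3 and the 7 adipokine genes among them (red), with dashed lines at 2-fold. Car3 lies just past the lower line, the other red points lie between the lines, and 102 grey genes with a change beyond 3 are not drawn.

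Adipoq was at 955 FPKM in WT and 636 in Postn-DTR, and Retn was at 940 and 641. The 2 genes were thus close to each other in both libraries, and both were listed lower in the Postn-DTR library. Adipoq was 33.4% lower, with a change of -0.59, and Retn 31.8% lower, with a change of -0.55. Among all genes compared, 8.82% had a change as low as that of Adipoq and 9.70% as low as that of Retn. Both ranked high in abundance, at positions 89 and 92 in WT and 160 and 158 in Postn-DTR. Of all genes compared, Retn was the nearest to Adipoq by distance on the log2(FPKM + 1) scale over both libraries (0.026), followed by Aldoa (0.18) and H2-Ab1 (0.31). This likeness rests on 2 libraries only. Adipoq (ENSMUSG00000022878) lies at chr16:23146536-23158028 on the plus strand and Retn (ENSMUSG00000012705) at chr8:3655770-3660110 on the plus strand (GRCm38), and no other annotated gene overlaps either.

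The promoters of these 2 genes and of Lep are shown because the C/EBP factors, whose genes are described further on, are known regulators of fat cell genes. They are RefSeq sequences (GRCm38.p6) from 250 bases before to 50 bases after the annotated start, read along the gene's strand, and 6 of the 9 genes matched in the table used, Rarres2, Sfrp4 and Car3 being the others. Capitals mark the C/EBP core TTNNGNAA, which was searched on both strands together with the PPAR/RXR half-site AGGTCA and the TATA box TATAAA.
Adipoq promoter (chr16:23146286-23146585, plus strand): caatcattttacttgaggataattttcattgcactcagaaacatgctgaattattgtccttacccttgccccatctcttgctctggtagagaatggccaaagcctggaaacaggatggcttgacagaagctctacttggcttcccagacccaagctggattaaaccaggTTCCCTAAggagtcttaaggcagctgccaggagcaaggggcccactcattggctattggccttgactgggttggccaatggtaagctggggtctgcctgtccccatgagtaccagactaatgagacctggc
Retn promoter (chr8:3655520-3655819, plus strand): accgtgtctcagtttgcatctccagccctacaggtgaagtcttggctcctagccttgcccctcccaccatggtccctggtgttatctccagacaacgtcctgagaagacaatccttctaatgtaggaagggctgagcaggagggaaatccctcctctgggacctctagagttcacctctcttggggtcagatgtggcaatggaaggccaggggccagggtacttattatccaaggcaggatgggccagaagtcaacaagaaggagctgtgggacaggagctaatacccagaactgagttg
Lep promoter (chr6:29059971-29060270, plus strand): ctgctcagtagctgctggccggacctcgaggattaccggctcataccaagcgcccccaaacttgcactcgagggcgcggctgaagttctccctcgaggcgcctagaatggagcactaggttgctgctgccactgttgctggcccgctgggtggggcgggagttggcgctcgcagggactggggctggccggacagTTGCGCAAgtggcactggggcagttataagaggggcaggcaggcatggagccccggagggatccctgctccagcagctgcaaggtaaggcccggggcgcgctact
The Adipoq window held 1 match to the core, TTCCCTAA, starting 81 bases before the annotated start. The Lep window held 1, TTGCGCAA, starting 55 bases before it. The Retn window held none of the 3 motifs. Over all 32851 promoters of this length 40.7% held the core, 16.3% the half-site and 13.6% the TATA box, so a match in a window is common and describes letters only.

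Relatives and partners of adiponectin were compared from lists. Of the 9 C1q/TNF genes, the paralogs of Adipoq, 0 were called lower and 0 higher, and their median change was -0.41. Fam132a, which encodes adipolin, was at 31.3 and 19.7 FPKM, C1qtnf9 at 15.8 and 11.7, and C1qtnf1 at 36.7 and 43.3. None of them came near the abundance of Adipoq. Of 7 genes for the assembly of adiponectin in the endoplasmic reticulum 0 were called, with a median change of 0.23. Erp44, which retains unfinished adiponectin, was at 29.7 and 35.1, and Gstk1, also known as DsbA-L, at 34.8 and 26.7. Ero1l, an oxidase that helps release adiponectin, had a change of 0.02. For the receptors, Adipor1 was at 50.5 and 70.9, Adipor2 at 130.2 and 117.8, and Cdh13, which encodes T-cadherin, at 7.93 and 10.8.

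Of the 3 resistin-like genes 2 were compared, of which 1 was called higher and 0 lower. Retnla, which encodes the resistin-like molecule of alternatively activated macrophages, was at 435 and 522 FPKM. Retnlg, a gene known from neutrophils and bone marrow, rose from 12.8 to 72.6. Retnlb was listed at 0 in both libraries. The ratio of Retn to Retnlg within a library was therefore 73.5 in WT and 8.82 in Postn-DTR, and that of Retn to Retnla was 2.16 and 1.23. Of 7 neutrophil markers 6 were listed and compared, of which 2 were called higher and 2 lower, and their summed FPKM was 385 and 622. Csf3r, the receptor for granulocyte colony-stimulating factor, rose from 6.87 to 15.9, and the chemokine receptor gene Cxcr2 from 0.514 to 4.03. The granule protein genes of immature neutrophils Ngp and Mpo fell, from 48.0 to 13.2 and from 3.84 to 0.726. The part of neutrophils in the Retnlg value was not tested. How reads shared between related copies were divided is not given in the sources used here.

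Lep had the smallest change of the 8 genes compared. It was at 22.7 FPKM in WT and 20.3 in Postn-DTR, a ratio of 1.12-fold and a change of -0.15. Of all genes compared 32.7% had a change as low. Lep (ENSMUSG00000059201) lies at chr6:29060220-29073877 on the plus strand, with no overlapping gene. Its level was far below that of Adipoq, at 2.37% of it in WT and 3.19% in Postn-DTR, although Nampt, Sfrp4 and Sfrp5 were lower still in WT. Nearest to Lep over both libraries were Ldah, Rhot2 and Dhrs7b, at distances of 0.011 to 0.017. Of the 8 genes of leptin signalling 1 was called higher and 0 lower, with a median change of 0.48. That gene was Socs3, a feedback inhibitor induced by leptin and by other STAT3-activating cytokines, which rose from 17.8 to 143.4. Lepr, the leptin receptor gene, was at 6.59 and 10.9, and Leprot, which overlaps it in the genome and could share reads with it, was at 64.1 and 80.3. Stat3 was at 66.5 and 109.9, and Ptpn1, a phosphatase that limits leptin signalling, at 33.4 and 56.5.

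Car3 was the third most abundant transcript in WT and the 34th in Postn-DTR. Its share of all FPKM was 0.798% and 0.314%, which also reflects the larger FPKM total of the Postn-DTR library. The change was -1.04, and 2.86% of all genes compared, or 2.26% of those with a mean FPKM of at least 10, had a change as low. Car3 (ENSMUSG00000027559) lies at chr3:14863512-14872523 on the plus strand and overlaps no other annotated gene. It stood just past the 2-fold line, and Sfrp4 was next at -0.72. With acinar genes removed and equal totals, Apln at -0.996 and Sfrp4 at -0.992 lay just inside that line. Its value was recomputed under 9 alternative settings and stayed below 0. The call was lost under 1 of them, when changes were centred on the adipocyte markers, where Car3 stood at -0.26, and also at a 3-fold threshold. Few genes had like values at this abundance, and the nearest were Cd74 at a distance of 0.37, Tmsb4x and C3.

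The other carbonic anhydrases were at far lower levels. Of 15 10 were compared, 0 were called lower and 1 higher, and the median change was 0.28. The gene called was Car6, a secreted form best known from saliva, which rose from 0.294 to 10.9 FPKM. Car5b, a mitochondrial form, was at 45.4 and 30.6. Car2, the cytosolic form of red cells and other tissues, was at 4.78 and 8.36, and Car4, a membrane-bound form, at 4.18 and 7.71. Car3 is also known from skeletal muscle and liver. Of 8 skeletal muscle markers 2 reached the expression minimum, Myh4 and Myh7 were listed at 0 in both libraries, and the sum was 3.62 FPKM in WT and 3.67 in Postn-DTR. The 6 hepatocyte markers summed to 4.57 and 2.92 FPKM. Both sums were near 0 beside the Car3 values.

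Nampt was the gene with a change above 0. It was at 18.6 FPKM in WT and 30.1 in Postn-DTR, a ratio of 1.62-fold and a change of 0.67. Among genes whose mean reached 10 FPKM, 8.99% had a change as high. Nampt (ENSMUSG00000020572) lies at chr12:32819545-32853349 on the plus strand. The noncoding gene Gdap10 overlaps it on the same strand, with 0.166 and 0.256 FPKM. Nearest to Nampt over both libraries were Spsb1, Smoc2 and Sla2, at distances of 0.038 to 0.054. Its change stayed above 0 under every alternative tried for it, from 0.33 to 1.44. Of 13 other genes of NAD metabolism 11 were compared, 2 were called higher and 0 lower, and the median change was -0.05. Both called genes encode NAD-consuming ectoenzymes of leukocytes and stroma. Bst1 rose from 10.2 to 40.8, and Cd38 from 25.4 to 59.3. Nmnat1 and Nmnat3, which act after Nampt in the salvage route, were at 6.56 and 4.08 and at 7.06 and 8.54. Nnmt, which removes the nicotinamide that Nampt uses, was at 97.0 and 150.6.

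Rarres2 was at 367 FPKM in WT and 286 in Postn-DTR. The ratio was 1.28-fold and the change -0.36, and 17.6% of all genes compared had a change as low. Rarres2 (ENSMUSG00000009281) lies at chr6:48569696-48572789 on the minus strand. Lrrc61, on the opposite strand, overlaps it and was at 11.6 FPKM in WT with a change of -0.20, and whether counting used the strand is not given in the sources used here. Nearest to Rarres2 over both libraries were Slc1a5, Ptms and Aldh2. Neither of the chemerin receptor genes that were compared was called. Cmklr1, the signalling receptor, was at 54.7 and 67.7, and at equal totals without acinar genes its change of 0.30 turned to -0.04. Ccrl2, which holds chemerin at the cell surface, was at 3.08 and 7.02, a ratio of 2.28-fold but a change of 0.98 with the pseudocount, and Gpr1 was under the expression minimum at 0.565 and 1.07. Of 6 proteases that can process chemerin 5 were compared, 2 were higher and 1 was lower. Ctss rose from 313 to 716 and Ctsl from 285 to 611, which are both abundant in macrophages, and Elane, a neutrophil granule elastase, fell from 5.86 to 1.85. The median of the 5 was 0.56.

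Apln was at 28.3 FPKM in WT and 17.4 in Postn-DTR, a ratio of 1.63-fold and a change of -0.67. Of all genes compared 6.94% had a change as low. Apln (ENSMUSG00000037010) lies at chrX:48025146-48034853 on the minus strand, with 1 annotated transcript and no overlapping gene. These values corresponded to about 1948 and 1233 reads, and the 95% interval of the ratio for counting error alone was 1.51 to 1.75. Nearest to it over both libraries were Gnai1, Tmem135 and Fam111a. The receptor gene Aplnr fell further, from 15.8 to 1.85, a change of -2.56. Of 10 adipokine receptors 9 were compared, and Aplnr was the only one called lower, with 0 called higher. Their median was 0.40. The ratio of Apln to Aplnr was 1.79 in WT and 9.41 in Postn-DTR. Of 4 genes of the apelin axis 3 were compared and 2 were called lower, with a median of -1.65. Mme, which encodes the apelin-degrading peptidase neprilysin, fell from 6.39 to 1.35. Apela, the other ligand of the receptor, was listed at 0 in both libraries. Endothelial cells are known to make both Apln and Aplnr. The 6 endothelial markers had a median change of -0.06, with 3 below 0 and 3 above, from -0.68 for Kdr to 0.48. Kdr was at 22.4 and 13.6 FPKM, and Pecam1 at 109.0 and 109.5. The direction for Pecam1 was not stable, with its change of 0.01 below 0 in 4 of 5 other scalings.

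The Sfrp genes were the least abundant. Sfrp4 was at 7.67 FPKM in WT and 4.27 in Postn-DTR, a ratio of 1.80-fold and a change of -0.72. Of all genes compared 6.05% had a change as low. Sfrp4 (ENSMUSG00000021319) lies at chr13:19623104-19632994 on the plus strand, and Rhbdl3, Lipo1 and Xcl1 were nearest to it over both libraries. Sfrp5 was at 0.303 and 0.0489. It has 1 annotated transcript (ENSMUSG00000018822, chr19:42197971-42202252, minus strand), from which these values corresponded to about 12 and 2 reads. The ratio was 6.21-fold, with a 95% interval for counting error of 1.38 to 56.9, so its size was not resolved at this depth. On the log2(FPKM + 1) scale the same values gave only -0.31, and without the pseudocount -2.63. Genes as low as Sfrp5 are numerous, and those nearest to it (Neto2, Gm8221 and Gm2027) were at like values by abundance alone.

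Other secreted Wnt antagonists and Wnt ligands were read for comparison. Of 8 other antagonists 5 were compared, of which 1 fell and 1 rose, and the median was -0.58. The fibroblast products Sfrp1 and Sfrp2 were at 10.7 and 5.88 and at 10.7 and 6.87. Dkk2 fell from 2.58 to 0.663, and Frzb rose from 2.01 to 5.37. Dkk3 was at 35.3 and 54.8. Of 9 Wnt ligand genes 8 were compared, 1 was called higher and 0 lower, with a median of -0.07. Wnt2 rose from 4.71 to 11.1, and Wnt5a, a ligand that SFRP5 is known to bind, was at 9.16 and 4.70. Sfrp1, Sfrp2, Sfrp4 and Sfrp5 thus each had the lower value in the Postn-DTR library. Frzb, also called Sfrp3, went the other way, with a change of 1.08. Centring on the adipocyte markers adds 0.77 to changes that the pseudocount has already shrunk. All 4 then stood above 0, with Sfrp1 at 0.005 and Sfrp2 at 0.20. Without the pseudocount Sfrp4 was at -0.85 and Sfrp5 at -2.63, so the turn of these 2 rested on it.

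**Figure D3:**
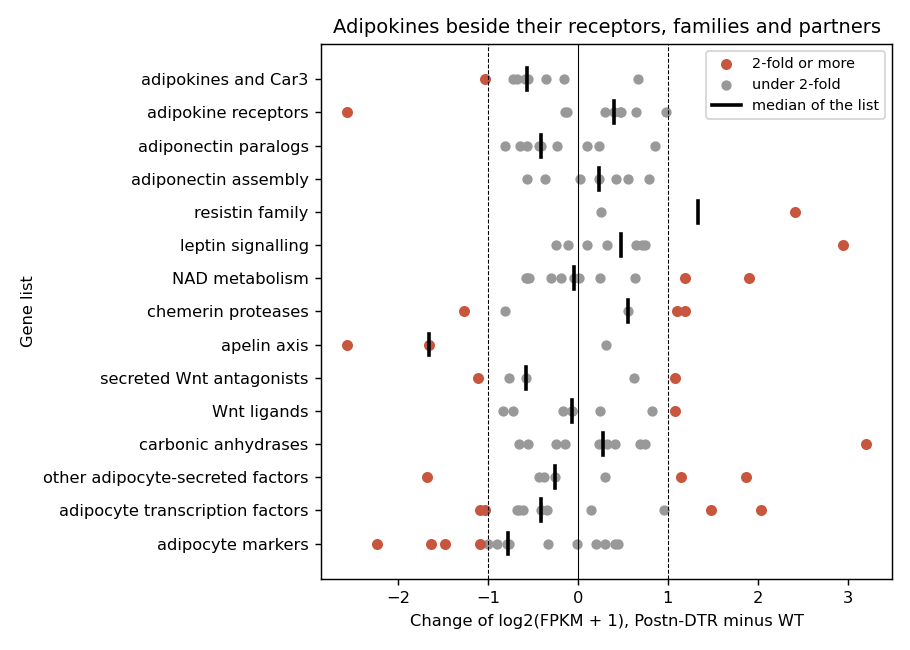
Change on the log2(FPKM + 1) scale, Postn-DTR less WT, for every compared gene of each list (points, red at 2-fold or more), with the median of the list (black bar) and dashed lines at 2-fold. The adipokines and Car3 run from -1.04 to 0.67 with a median of -0.57. Genes of the other lists drawn reach from -2.56 (Aplnr) to 3.21 (Car6).

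Further products of fat cells spread more widely than the 9 genes. Of 9 other adipocyte-secreted factors 7 were compared, 1 was lower and 2 were higher, with a median of -0.25, which was 0.52 when centred on the adipocyte markers. Rbp4, the retinol carrier, fell from 155 to 47.8 FPKM. Agt, which encodes angiotensinogen, rose from 50.2 to 187, and Metrnl from 15.9 to 36.3. Cfd, which encodes the adipokine adipsin, was at 7764 and 5976, and its change of -0.38 lay between that of Lep and that of Adipoq. Itln1, the omentin gene, was listed at 0 in both libraries.

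The transcription factors that act on fat cell genes moved apart. Of 11 genes 2 were called lower and 2 higher, with a median of -0.41. Pparg, the master regulator of adipocytes, fell from 59.1 to 27.3 FPKM, and Ebf2, a factor of adipocyte precursors, from 1.85 to 0.397. Cebpd rose from 15.9 to 68.2 and Cebpb from 39.0 to 110.3, whereas Cebpa, the family member of mature adipocytes, was at 134.4 and 105.7. The motif in the Adipoq and Lep windows does not tell these family members apart.

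Ratios within a library do not depend on how the library was scaled, so each gene was also set against Adipoq. Retn was at 98.4% of Adipoq in WT and 101% in Postn-DTR. Rarres2 was at 38.4% and 44.9%, and Apln at 2.97% and 2.74%. These 3 ratios moved by 1.17-fold or less. Car3 was 4.53 times Adipoq in WT and 3.32 times in Postn-DTR. Nampt was at 1.95% of Adipoq in WT and 4.73% in Postn-DTR, 2.43-fold more, which was the largest shift of the 8 genes compared. Set against Plin1, Adipoq was at 2.97 and 3.36, Retn at 2.92 and 3.39, and Car3 at 13.5 and 11.2. Set against Fabp4, Adipoq was at 0.196 and 0.0975. Whether Adipoq is more or less abundant relative to other fat cell transcripts thus depended on which transcript was taken.

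**Figure D4:**
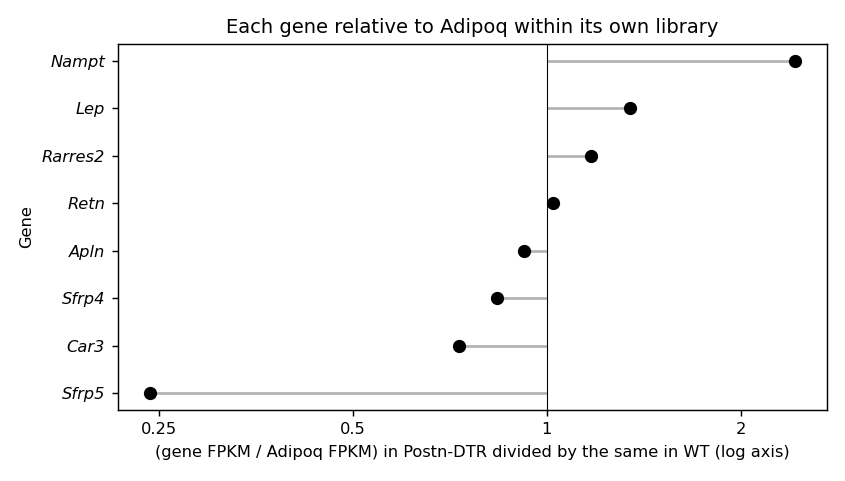
For each gene, its FPKM divided by that of Adipoq in the Postn-DTR library, over the same ratio in the WT library (log axis, 1 marks no difference). Retn sits at 1.02, Apln and Rarres2 lie close to 1, Nampt reaches 2.43, and Sfrp5 rests on about 12 and 2 reads.

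The direction of most values depended on the reference. With acinar genes removed and equal totals, the changes were -0.93 for Adipoq, -0.90 for Retn, -0.70 for Rarres2, -0.48 for Lep and 0.33 for Nampt, and the median of the 8 genes was -0.91 beside -0.28 over all genes. When changes were centred on the median of the adipocyte markers, which moved all genes by 0.77, the adipokines other than Car3 stood above 0. For Sfrp4 and Sfrp5 this rested on the pseudocount. Centred in this way, Adipoq was at 0.19, Retn at 0.22, Lep at 0.62 and Nampt at 1.44, which is a call. The same setting called 29.1% of all genes compared higher, so that call does not single out Nampt.

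**Figure D5:**
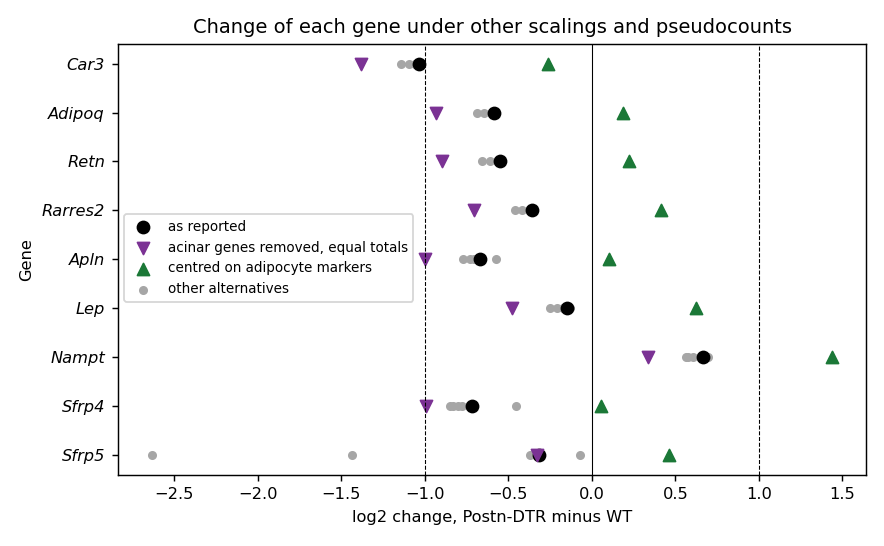
Change of each gene, Postn-DTR minus WT (log2 scale), as reported (black), with acinar genes removed and equal totals (purple), centred on adipocyte markers (green) and under the other alternatives (grey), with dashed lines at 2-fold. The reported values lie between the purple and green points, and for 7 genes the green point lies on the other side of 0 from the reported value.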

How the data were processed

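Omental RNA of both genotypes was profiled 5 days after DT, with 1 library each, and groups were taken from the genotype labels. Per the labels, total RNA (miRNeasy) was made into stranded TruSeq mRNA libraries. The authors deposited FPKM, 1 value per gene symbol and library. The submitters' processing notes name mm10, TopHat2 2.1.1, Bowtie2 2.2.8, SAMtools 0.1.18 and Cuffdiff 2.2.1, and the annotation is not given in the sources used here. Positions and transcript lengths came from GENCODE M21 (GRCm38).

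Changes on the log2(FPKM + 1) scale were taken where the mean FPKM reached 1, and 2-fold was called. No test was possible. The members, the other 23 lists and the alternatives were chosen with earlier results of these data known, and 1 of the 12 alternatives (no pseudocount) was added after the data were seen. Named genes were the 9 members, list genes past 2-fold (at most 4 per direction), relatives of a member, and the 3 genes nearest to each member. Outside this rule, Plin1, Fabp4, Cebpa, Pecam1, Kdr, Leprot, Stat3, Ptpn1, Cfd, Itln1, Apela, Wnt5a, Dkk3, Erp44, Ero1l, Gstk1, Nmnat1, Nmnat3, Nnmt, Myh4 and Myh7 were chosen after their values were seen. After the analysis 2 genes were taken out of the lists and are not reported here. For depth, 723 low genes (FPKM under 0.1) were used, of which 174 had a ratio between libraries within 0.5% of 0.967, the worth of 1 read. Genes with 1 annotated transcript gave the fragment totals, under which 68.5% of low values in WT and 68.8% in Postn-DTR lay within 0.05 of a whole read. Read numbers are approximate, and intervals (exact, conditional binomial) cover counting error only. The tools were Python 3.11.15, pandas 2.3.3, numpy 2.4.6, scipy 1.17.1, matplotlib 3.10.9.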

Additional observations from a re-analysis of the deposited data

How the results depend on the processing

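No paired analysis was possible because each genotype had 1 library, and for the same reason no library could be left out. The median change of the 8 genes compared, -0.57, was -0.50 with a pseudocount of 5, -0.59 centred on all genes compared and -0.63 centred on the housekeeping genes. It was -0.67 at equal 75th percentiles, -0.91 with acinar genes removed and equal totals, and 0.20 centred on the adipocyte markers. With no filter on low values, which adds Sfrp5, the median of 9 genes was -0.55. With a mean FPKM of at least 10, which leaves out Sfrp4, the median of 7 genes was also -0.55. The count of lower genes, 1, became 4 at 1.5-fold and 0 at 3-fold or centred on the adipocyte markers. Of all genes compared 8.84% were lower and 9.86% higher at 1.5-fold, and 1.17% and 1.52% at 3-fold. The count of higher genes, 0, became 1 at 1.5-fold and 1 centred on the adipocyte markers. Under that last setting 3824 of all genes compared were called higher, against 509, and 118 lower, against 410, because the reference list itself stood at -0.77. With acinar genes removed and equal totals 732 were lower and 296 higher, and with a pseudocount of 5 these were 168 and 287. Other settings gave the same 1 and 0 calls among the members. Sfrp5, at about 2 reads in Postn-DTR, is limited by depth. Its change ran from -2.63 without a pseudocount to 0.46 centred on the adipocyte markers, a setting that keeps the pseudocount of 1.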
